A study of Homo sapiens with 19 samples.

Results

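The heterogeneous nuclear ribonucleoproteins (hnRNPs) examined here were HNRNPA1, HNRNPA2B1, HNRNPC, HNRNPD, HNRNPDL, HNRNPF, HNRNPH1, HNRNPH3, HNRNPK and HNRNPM. All rows of the 15 deposited splicing tables that carry these 10 gene symbols were taken, together with the AKAP8 eCLIP peaks over the same genes. Of the 10 genes, 9 had rows, against 11998 genes in the tables as a whole, and these 9 contributed 345 of 218798 rows. Splicing and level of HNRNPH1 were therefore not analysed here, and only its peaks were used.

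HMLE/Twist-ER is a TERT-immortalized line of human mammary epithelial cells with a fusion of Twist to the estrogen receptor, in which tamoxifen switches this transcription factor on and the cells pass through an epithelial–mesenchymal transition (EMT). The untreated cells were the epithelial state (EPI), and the cells given 20 nM tamoxifen were the mesenchymal state (MES). In both states the cells stably carried a lentiviral shRNA, either a non-specific one (control) or one that targets AKAP8 (AKAP8 knockdown). For RNA-seq of poly(A) RNA there were 3 control and 3 knockdown samples in EPI, and 3 control and 2 knockdown samples in MES, and AKAP8-bound RNA was mapped by single-end eCLIP from 2 immunoprecipitations and 2 inputs per state. All samples came from derivatives of a single line, and the MES state and the presence of tamoxifen cannot be told apart. Nothing in the labels places replicates in separate cultures, so the spread between these samples may be technical. The p-values rest on a spread drawn toward a trend over all splicing events or genes, not on that of a single event or gene alone. A small p-value of an event can therefore stand beside widely spread libraries. Where groups are said below not to overlap, the share of all genes or events without overlap was not computed.

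hnRNPs coat nascent pre-mRNA and take part in splicing, export, stability and translation of the transcripts they bind. hnRNP A1 and A2/B1 often act as splicing repressors, hnRNP C binds uridine tracts, hnRNP D (AUF1) and its relative hnRNP DL bind AU-rich elements, hnRNP F and the H proteins bind runs of guanines, and hnRNP K binds cytosine-rich RNA through KH domains. hnRNP M binds GU-rich RNA and is known to promote skipping of the variable exons of CD44, while AKAP8 is a nuclear anchoring protein of protein kinase A, studied here as a partner of hnRNP M. Most hnRNP genes are themselves alternatively spliced, and the segments below are the ones on which the results turn.

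The following segments are shown because they add residues to a known protein isoform or changed between states. Letters are GRCh37, 5′ to 3′ on the strand of the gene, with the variable segment in capitals and 20 flanking bases in lower case on each side.
HNRNPA2B1 B1 exon, chr7:26237431-26237506, minus strand: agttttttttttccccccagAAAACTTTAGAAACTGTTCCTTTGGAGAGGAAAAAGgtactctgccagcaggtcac
HNRNPD exon of 57 nt, chr4:83292661-83292757, minus strand: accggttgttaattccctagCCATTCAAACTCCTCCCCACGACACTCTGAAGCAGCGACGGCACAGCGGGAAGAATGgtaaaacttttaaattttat
HNRNPD exon of 49 residues, chr4:83277670-83277856, minus strand: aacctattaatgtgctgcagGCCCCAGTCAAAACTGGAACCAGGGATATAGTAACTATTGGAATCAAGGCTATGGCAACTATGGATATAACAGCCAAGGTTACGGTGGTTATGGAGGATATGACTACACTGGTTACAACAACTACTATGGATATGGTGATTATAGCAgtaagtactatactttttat
HNRNPC segment of 39 nt, chr14:21699097-21699175, minus strand: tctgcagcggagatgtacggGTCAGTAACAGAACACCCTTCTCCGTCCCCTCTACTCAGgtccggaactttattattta
HNRNPK exon of 72 nt, chr9:86588797-86588908, minus strand: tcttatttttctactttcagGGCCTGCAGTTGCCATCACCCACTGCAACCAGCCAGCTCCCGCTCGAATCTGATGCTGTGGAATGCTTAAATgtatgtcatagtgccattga
HNRNPM segment of 39 residues, chr19:8530227-8530383, plus strand: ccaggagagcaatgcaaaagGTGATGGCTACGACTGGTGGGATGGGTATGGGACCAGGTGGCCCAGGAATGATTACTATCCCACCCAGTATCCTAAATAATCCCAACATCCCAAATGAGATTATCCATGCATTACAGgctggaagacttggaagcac
Each of the 6 keeps the reading frame. They code for 12, 19, 49, 13, 24 and 39 residues in the order given. The HNRNPM segment holds 3 runs of at least 3 guanines, each HNRNPD exon holds 1, and the other segments hold none.

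The libraries carried between 31258177 and 40852217 junction reads over skipped exon (SE) events in each table. AKAP8 itself was lower with the AKAP8 shRNA than with the control shRNA in every library of both states. Its scaled junction reads were 244, 310 and 245 in the EPI controls and 121, 98.8 and 125 after knockdown. In MES they were 382, 196 and 248 in the controls and 108 and 122 after knockdown. The groups did not overlap in either state, with log2 fold changes of -1.20 in both, which passed the limma test in MES (adjusted p = 0.0322) and missed it in EPI (adjusted p = 0.0664). The MES call was lost when any of 5 libraries was left out (adjusted p up to 0.177). The labels of cell state were borne out by markers, since all 5 epithelial markers with a value were lower in MES control than in EPI control, with log2 fold changes from -4.34 to -2.49, and all 7 mesenchymal markers with a value were higher, with 1.77 to 7.02. None of these 12 markers passed the test in either knockdown. POSTN, the mesenchymal matrix gene periostin, came nearest in EPI, with 8.85 to 15.2 scaled reads in the controls and 27.0 to 44.1 after knockdown, against 1057 to 1914 in the MES controls (log2 fold change 1.53, adjusted p = 0.0671). Of the blood and endothelial markers, CD68 alone had a value. It had 643 to 870 scaled reads in the EPI controls and 350 to 389 in the MES controls. The limma test called it lower in MES (log2 fold change -1.02, adjusted p = 0.0457).

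HNRNPM was the member whose level changed with the cell state, and in this it stood at 1.63-fold in MES control relative to EPI control. The level of a gene was approximated by its junction reads summed over SE events and scaled between libraries. For HNRNPM these were 10266, 11807 and 8981 in the EPI controls. They were 18153, 17249 and 15039 in the MES controls. Every MES control lay above every EPI control. The log2 fold change was 0.70 ± 0.17 (SE, limma, adjusted p = 0.00785), and it stayed between 0.59 and 0.80 and at an adjusted p under 0.05 under all alternative scalings and with any library left out, though a required log2 fold change over 1 would remove the call. Among the 9014 genes tested, 11.5% were called higher and 12.3% lower in MES, so that 1 higher member of 9 is close to the background. In bulk RNA, a smaller number of cells of a type cannot be told apart from less RNA per cell.

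AKAP8 knockdown left HNRNPM without a call. The EPI knockdown libraries had 14442, 9648 and 12223 scaled reads and overlapped the EPI controls (log2 fold change 0.22 ± 0.17 SE, adjusted p = 0.783). The MES knockdown libraries had 16474 and 17082 and lay inside the range of the MES controls (log2 fold change 0.00 ± 0.19 SE, adjusted p = 0.998). The order of the group means was EPI control, EPI knockdown, MES knockdown and MES control, in which the first pair and the last pair of neighbours did not differ beyond their spread. The knockdown effect in MES minus that in EPI was -0.21 ± 0.25 (SE, adjusted p = 0.872).

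**Figure D1:**
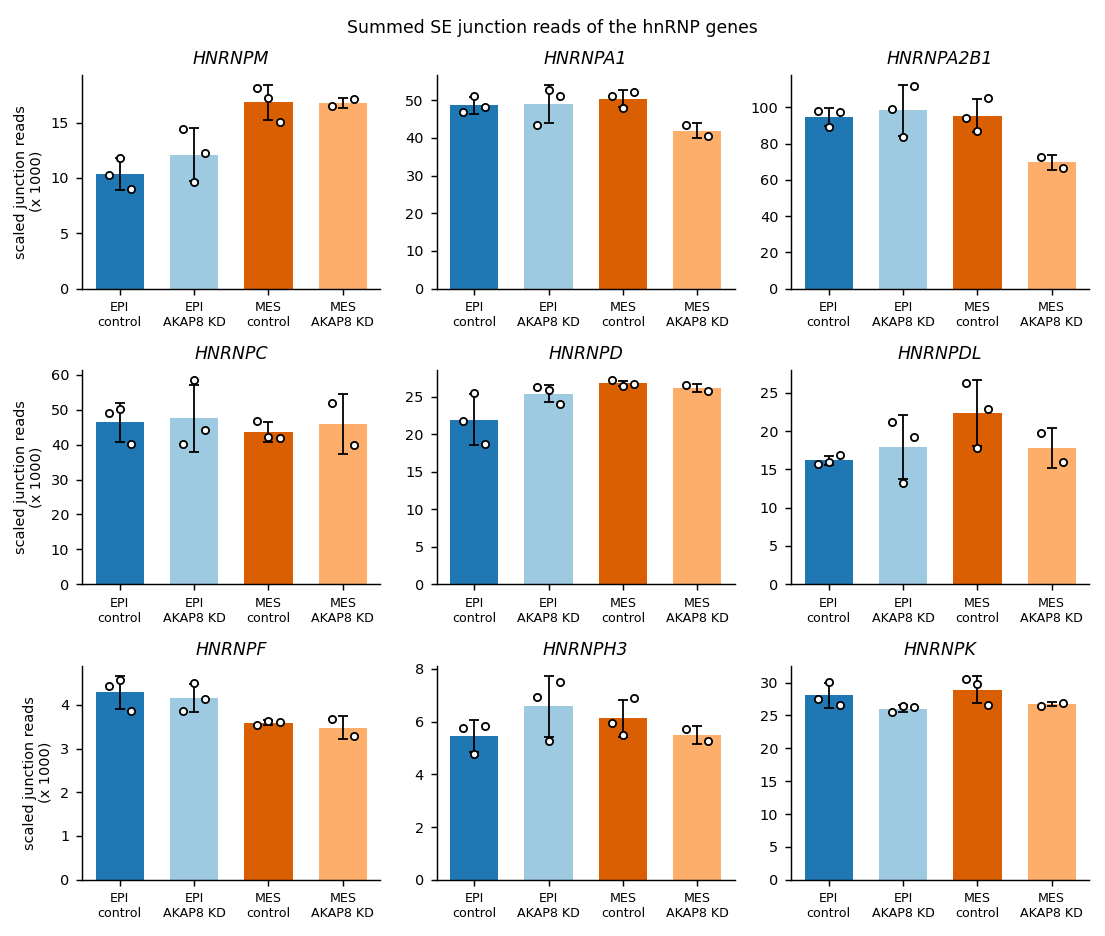
Scaled junction reads, in units of 1000 as on the axis, summed over the SE events of each gene, for 9 hnRNP genes in 4 groups of 3, 3, 3 and 2 libraries. Bars are group means, error bars are SD and open circles are libraries, and the y axes differ between genes, whose levels are not comparable with each other. HNRNPM libraries run from 8981 to 11807 in EPI control and from 15039 to 18153 in MES control.

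None of the other 8 members passed the test for EMT. The nearest was HNRNPDL, an AU-rich element binder, with 15719, 15991 and 16842 scaled reads in the EPI controls and 26304, 17789 and 22935 in the MES controls (log2 fold change 0.45, adjusted p = 0.113). HNRNPD followed at 21768, 25468 and 18698 against 27233, 26462 and 26721 (0.30, adjusted p = 0.139). For both genes the control groups did not overlap. The spread was wide in the MES controls for HNRNPDL and in the EPI controls for HNRNPD. HNRNPF had the lowest value of the 9, with 4432, 4570 and 3851 scaled reads in EPI control and 3533, 3640 and 3608 in MES control (log2 fold change -0.25, adjusted p = 0.184). Its control groups did not overlap either. HNRNPA1, HNRNPA2B1, HNRNPC, HNRNPH3 and HNRNPK had log2 fold changes between -0.09 and 0.17. The median over the 9 members was 0.049, against 0.011 over all genes. Scaling by total junction reads moved the median of all genes from 0.011 to -0.103, and HNRNPF then passed the test (log2 fold change -0.36, adjusted p = 0.0484). HNRNPDL passed it in a fit of the 2 control groups alone (adjusted p = 0.036), and HNRNPD when the SE event with the most reads stood for the gene (adjusted p = 0.0494).

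In the EPI knockdown no member was called, 0 had an unadjusted p under 0.05, and the log2 fold changes ran from -0.10 for HNRNPK to 0.26 for HNRNPH3. Over all genes, 0.0888% were called higher and 0.166% lower in this comparison, and 9.86% had an unadjusted p under 0.05. In the MES knockdown no member was called either, against 2.06% of all genes higher and 2.1% lower. Of the members, 1 had an unadjusted p under 0.05, against 21.8% of all genes. That member was HNRNPA2B1, with 94009, 87055 and 105236 scaled reads in the MES controls and 72673 and 66824 after knockdown (log2 fold change -0.45 ± 0.17 SE, adjusted p = 0.152). HNRNPA1, which encodes the closest relative of hnRNP A2/B1 in this list, had 51016, 47936 and 52206 against 43353 and 40542 (-0.26 ± 0.15 SE, adjusted p = 0.332). In both genes the knockdown libraries lay below all 3 controls, and neither difference passed the test. The median over the members was 0.045 in the EPI knockdown and -0.114 in the MES knockdown, against -0.008 and -0.013 over all genes. The test of the knockdown effect in MES minus EPI called 0 of 9 members, against 0.0111% of genes higher and 0.0% lower. At an unadjusted p under 0.05 there were 0 members, against 6.55% of all genes.

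A longer list of 21 other hnRNP genes gives the setting. Of these, 16 could be tested, and 4 were higher and 0 lower in MES control than in EPI control, against the 11.5% and 12.3% of all genes. HNRNPR, an hnRNP with a role in mRNA transport, had 6304, 5917 and 5594 scaled reads in EPI control and 9529, 8787 and 8631 in MES control, without overlap (log2 fold change 0.60, adjusted p = 0.00925). The nuclear scaffold gene HNRNPU (0.59, adjusted p = 0.0135) and its paralog HNRNPUL2 (0.49, adjusted p = 0.0238) were also among those called. PTBP2, the neuronal paralog of the polypyrimidine tract binding protein, had the highest value, 1.14, but rested on 16.7 to 61.1 scaled reads in the control libraries and did not pass (adjusted p = 0.174). Neither knockdown called any of the 16, with 1 in EPI and 6 in MES at an unadjusted p under 0.05, against 9.86% and 21.8% of all genes. The 3 furthest from 0 in the EPI knockdown were PCBP4 (-0.57), PTBP2 (-0.34) and HNRNPUL1 (-0.32). In the MES knockdown they were PCBP4 (-0.72), PTBP2 (-0.63) and PTBP3 (-0.61).

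Over the 11 libraries, the genes whose log2 levels followed HNRNPM most closely were EIF4G2, a translation initiation factor of the eIF4G family (Pearson r = 0.959), KCTD20 (r = 0.958) and DNAL1 (r = 0.956). Among the members, r with HNRNPM was 0.745 for HNRNPD, 0.634 for HNRNPDL and -0.77 for HNRNPF. The libraries share cell state and scaling, so these coefficients describe the data without a test.

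The tables hold 143 distinct splicing events of the member genes, namely 99 SE, 35 mutually exclusive exon (MXE), 4 alternative 5′ splice site (A5SS), 2 alternative 3′ splice site (A3SS) and 3 retained intron (RI) events. Inclusion is given as percent spliced in (PSI), and an event was called changed at an adjusted p under 0.05 in a quasi-binomial test together with a ΔPSI of at least 10 points. Rows with a mean under 20 junction reads, 3 in EMT, 2 in the EPI knockdown and 4 in the MES knockdown, were not tested. In EMT, 3 of 120 tested member events changed, 2 toward more and 1 toward less inclusion, against 1.59% of all 67451 tested events. In the EPI knockdown 0 of 103 changed, against 0.0492% of all events, and in the MES knockdown 0 of 113, against 0.054%. At an unadjusted p under 0.05 the counts were 25, 6 and 9, and at an adjusted p under 0.05 with no limit on size they were 17, 1 and 1. Over all events, 11.2%, 4.65% and 3.73% had an unadjusted p under 0.05, and 2.74%, 0.088% and 0.086% an adjusted p under 0.05. Most differences were small, with an absolute ΔPSI under 1 point in 84 of 120, 76 of 103 and 86 of 113 events. The median absolute ΔPSI was 0.185, 0.17 and 0.16 points for the members against 0.934, 0.777 and 1.012 for all events tested. Member events had a median of 2693, 2522 and 3571 junction reads per library, and the part of depth in this difference from all events was not tested. The EPI knockdown and EMT comparisons share the EPI controls, and the MES knockdown and EMT comparisons share MES controls.

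**Figure D2:**
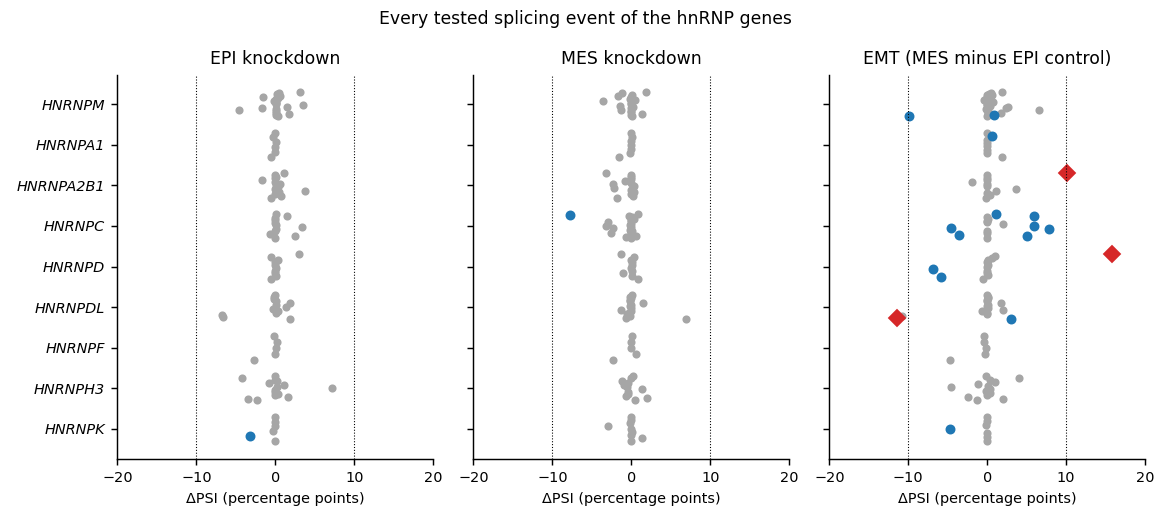
ΔPSI in percentage points of every tested splicing event of 9 hnRNP genes, knockdown minus control in the left and middle panels and MES control minus EPI control in the right panel. Grey points did not reach an adjusted p of 0.05, blue points did with a ΔPSI under 10 points (dotted lines), and red diamonds are the 3 events called changed, in HNRNPA2B1, HNRNPD and HNRNPDL. The vertical offset within a gene only separates points.

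The 36-nt exon that turns hnRNP A2 into hnRNP B1, by adding residues near the N terminus, was included more often in the mesenchymal state. PSI was 13.0%, 12.6% and 12.0% in the EPI controls and 24.8%, 23.2% and 19.8% in the MES controls, with no overlap. The ΔPSI was 10.09 points (adjusted p = 4.02e-19). The exon lies at chr7:26237451-26237486 and is coding in 2 annotated transcripts. After AKAP8 knockdown PSI was 16.7%, 11.1% and 13.1% in EPI (ΔPSI 1.13, adjusted p = 0.711). In MES it was 21.6% and 20.0% after knockdown, against the first 2 controls, which alone are in that comparison (ΔPSI -3.16, adjusted p = 0.773). The EMT difference is close to the 10-point limit, and it fell to between 9.0 and 9.84 points when the third EPI control or the first or second MES control was left out. A limma test on logit PSI gave an adjusted p of 0.47 for it. The widest HNRNPA2B1 difference in the EPI knockdown was 3.70 points, in an exon with a mean of 28.8 junction reads, and did not pass.

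HNRNPD, which encodes AUF1, has a pair of exons that define its 4 protein isoforms, and the 57-nt exon was called changed toward more inclusion in EMT. The 57-nt exon at chr4:83292681-83292737 had a PSI of 62.9%, 66.8% and 63.5% in the EPI controls and 85.3%, 82.8% and 72.8% in the MES controls (ΔPSI 15.86 points, adjusted p = 4.85e-15). The exon of 49 residues at chr4:83277690-83277836 had 55.5%, 54.2% and 53.2% in EPI and 46.7%, 47.6% and 47.9% in MES (ΔPSI -6.90, adjusted p = 0.0264), which is under the 10-point limit and was not called. Its adjusted p rose to between 0.0931 and 0.339 without any one of the EPI controls or the first or second MES control, and to 0.798 with limma on logit PSI. The controls of the states did not overlap at either exon. In the EPI knockdown the 57-nt exon stood at 73.7%, 62.9% and 65.8% and the other exon at 49.9%, 58.4% and 54.4% (ΔPSI 3.04 and -0.09). In the MES knockdown the 57-nt exon stood at 82.8% and 82.7% and the other exon at 46.9% and 45.5% (ΔPSI -1.28 and -0.99). None of these 4 knockdown differences passed the test. The EMT call of the 57-nt exon was lost with a dispersion trend on all reads and with limma on logit PSI (adjusted p = 0.397 in both). Other SE rows of the 57-nt exon, with another neighbouring exon and fewer reads, had control means of 98.4% or higher. Their ΔPSI in EMT was 0.57 and 1.03 (adjusted p = 0.691 and 0.652). Another SE row of the exon of 49 residues had 100% in EPI control and 99.9% in MES control.

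HNRNPDL held the third changed event, a 105-nt exon at chr4:83346716-83346820 that occurs in UTRs and in transcripts annotated for nonsense-mediated decay. Its PSI was 23.7%, 18.2% and 30.4% in the EPI controls and 7.90%, 18.2% and 12.2% in the MES controls (ΔPSI -11.37, adjusted p = 4.88e-08). The highest MES control reached the lowest EPI control to within 0.1 points, since the unrounded values were 18.15% and 18.24%. The EPI knockdown libraries had 12.3%, 23.6% and 16.6% (ΔPSI -6.61, adjusted p = 0.581), and the MES knockdown libraries 13.9% and 25.97% (ΔPSI 6.92, adjusted p = 0.773). Libraries of every group were spread over 10 points or more, and single libraries decided the calls. Without the third EPI control or the first MES control the EMT difference was -8.24 or -8.95 points, without the third MES control its adjusted p was 0.0514, and with limma on logit PSI and the dispersion trend on all reads it was 0.426 and 0.626. Conversely, the MES knockdown difference passed at 12.05 points without the second MES control (adjusted p = 0.00395) and at 12.95 points without the first knockdown library (adjusted p = 0.000727). In another SE row of this exon, with another neighbouring exon and fewer reads, the means were 100% in MES control and 99.3% in MES knockdown. An MXE row of a 93-nt exon and its neighbour had 71.6%, 64.3% and 72.4% in the EPI controls and 53.7%, 59.4% and 62.9% in the MES controls (ΔPSI -10.80, adjusted p = 0.174), and 62.8%, 60.5% and 64.7% in the EPI knockdown (ΔPSI -6.78, adjusted p = 0.473). These values are ratios of junction reads of exons that are nearly always included, not a choice between them, since the 93-nt exon stood at 99.7% or higher in the EPI and MES control means of its own SE rows. The neighbour, a coding exon of 57 residues, at chr4:83347616-83347786, was also near complete inclusion in its SE row, with group means of 98.4%, 98.1%, 97.8% and 97.0% in EPI control, EPI knockdown, MES control and MES knockdown.

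**Figure D3:**
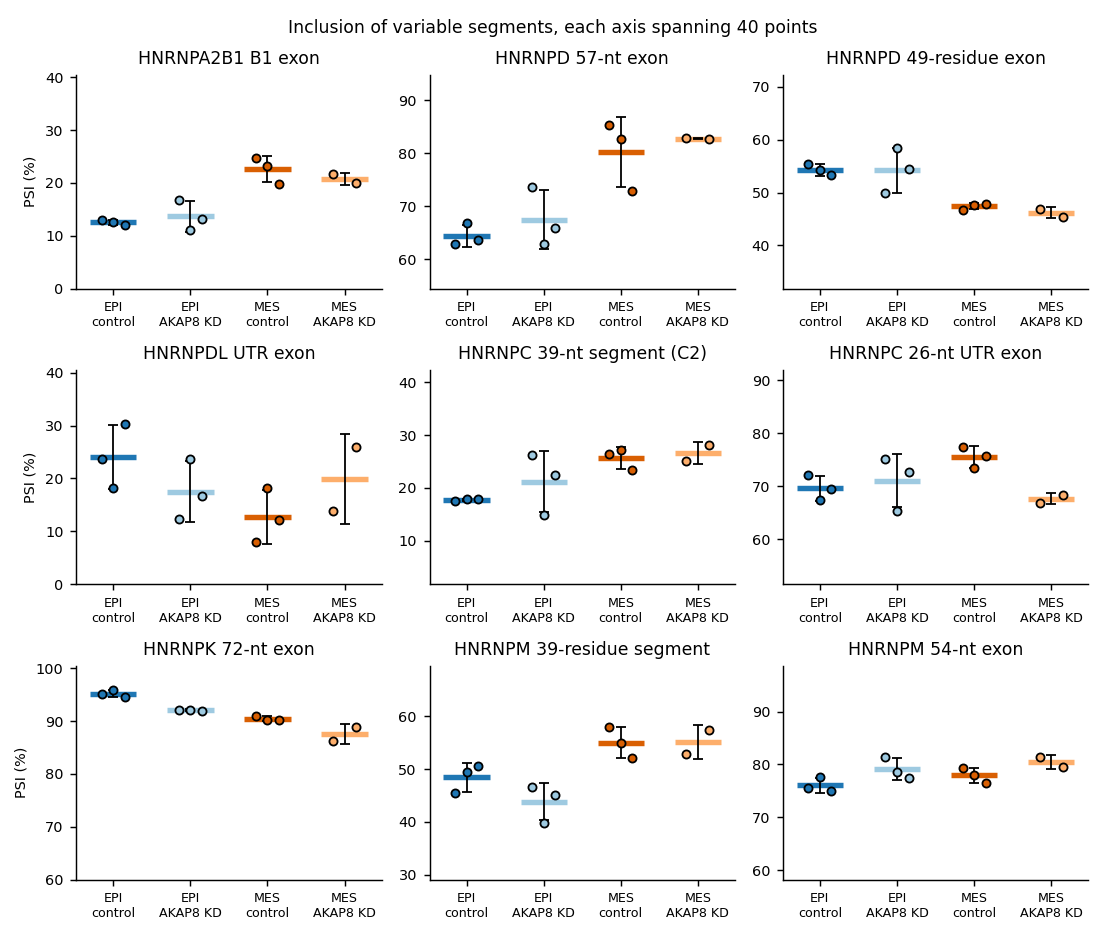
PSI in percent of 9 variable segments in 4 groups, with a point per library, a thick line at the group mean and error bars of SD. Every y axis spans about 40 points but they start at different values. The HNRNPA2B1, HNRNPD and HNRNPC segments separate EPI control from MES control, and the HNRNPK exon runs from a mean of 95.2% in EPI control to 87.6% in MES AKAP8 knockdown.

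Further segments differed with an adjusted p under 0.05 but by less than 10 points, and they were singled out after their values were seen. HNRNPC carries an alternative 5′ splice site that adds 39 nt and makes hnRNP C2 out of C1. Use of the longer form, chr14:21699117-21699155, was 17.5%, 17.8% and 17.9% in the EPI controls and 26.5%, 27.2% and 23.3% in the MES controls (ΔPSI 7.87, adjusted p = 3.37e-15). After knockdown it was 26.1%, 14.9% and 22.5% in EPI and 25.1% and 28.1% in MES (ΔPSI 3.38 and -0.19, adjusted p of 0.831 for the former). The EPI knockdown libraries thus spread from below the EPI controls into the range of the MES controls. With limma on logit PSI the EMT difference did not pass (adjusted p = 0.297). HNRNPC contributed 7 of the 17 EMT events at an adjusted p under 0.05, of which 4 were MXE rows built from its neighbouring exons.

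In the 5′ UTR of HNRNPC, a 26-nt exon at chr14:21731470-21731495 gave the only member event with an adjusted p under 0.05 in the MES knockdown. PSI was 77.4% and 73.4% in the 2 MES controls of that comparison and 66.9% and 68.4% after knockdown (ΔPSI -7.78, adjusted p = 0.00711). The third MES control, in the EMT tables alone, had 75.8%. The EPI controls had 72.1%, 67.3% and 69.4% (EMT ΔPSI 5.93, adjusted p = 0.00378), and the EPI knockdown libraries 75.1%, 65.4% and 72.6% (ΔPSI 1.46). The MES knockdown values lay within the range of the EPI controls or just under it. Other SE rows of this exon, with another neighbouring exon and fewer reads, had group means of 99.6% or higher. The MES knockdown difference no longer passed without the first control (adjusted p = 0.923), the second control (0.249) or the first knockdown library (0.68), nor with limma on logit PSI (0.937). The EMT difference was lost without the second EPI control (adjusted p = 0.233) or the first MES control (0.152) and with limma on logit PSI (0.787). The knockdown difference in MES minus that in EPI was -9.37 points and did not pass (adjusted p = 0.273). In that test 0 of 56 SE events of the members were called, against 0.00993% of all SE events. At an unadjusted p under 0.05 there were 6, and the share of all SE events at that level was not computed.

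HNRNPK gave the only member event with an adjusted p under 0.05 in the EPI knockdown. Its 72-nt coding exon at chr9:86588817-86588888 had a PSI of 95.2%, 95.9% and 94.6% in the EPI controls and 92.1%, 92.2% and 91.9% after knockdown (ΔPSI -3.17, adjusted p = 0.0159). The MES controls had 91.0%, 90.2% and 90.2% (EMT ΔPSI -4.77, adjusted p = 1.61e-08). The MES knockdown libraries had 86.3% and 88.9% (ΔPSI -3.01, adjusted p = 0.773). The knockdown libraries lay below the controls of their own state in both states, and the size of the difference was near 3 points in each. The EPI knockdown difference no longer passed when any EPI control or the third knockdown library was left out (adjusted p from 0.0831 to 0.725, the highest without the second control), nor with limma on logit PSI (adjusted p = 0.908). The EMT difference passed with any library left out but not with limma on logit PSI (adjusted p = 0.493). Between 5850 and 7283 junction reads per control library lay behind these values.

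HNRNPM itself had no changed event among 30 tested in EMT, 21 in the EPI knockdown and 19 in the MES knockdown. The segment of 39 residues at chr19:8530247-8530363, whose removal gives the shorter of its main protein isoforms, was retained in 45.4%, 49.5% and 50.5% of transcripts in the EPI controls. In the MES controls the values were 58.0%, 55.0% and 52.1% (ΔPSI 6.55, adjusted p = 0.256). They were 46.6%, 39.8% and 45.2% in the EPI knockdown (ΔPSI -4.62) and 52.9% and 57.4% in the MES knockdown (ΔPSI -1.35). The control groups of the states did not overlap, but the difference did not pass the test. The 54-nt exon at chr19:8548042-8548095 had 75.5%, 77.6% and 74.96% in EPI control, 81.4%, 78.6% and 77.4% in EPI knockdown, 79.3%, 78.0% and 76.5% in MES control and 81.4% and 79.5% in MES knockdown. Its ΔPSI was 3.08 in the EPI knockdown, 1.81 in the MES knockdown and 1.88 in EMT, and none passed. Other SE rows of this exon, with another neighbouring exon and fewer reads, had group means of 98.88% or higher. The widest HNRNPM difference was in an MXE row of a 170-nt and a 53-nt exon, 53%, 56.8% and 49.1% in EPI control against 44.1%, 42.7% and 42.4% in MES control (ΔPSI -9.92, adjusted p = 8.04e-07). The 53-nt exon was included at 99.0% and 99.8% in its own SE row, so the MXE value is a ratio of junction reads of exons that are nearly always included, and not a choice between them. In the MES knockdown the widest HNRNPM difference was -3.64 points, in another MXE row, and did not pass. The first of these rows passed the 10-point limit when the third EPI control (-11.86) or the first MES control (-10.45) was left out, and with limma on logit PSI its adjusted p was 0.212.

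The remaining members had smaller differences. HNRNPA1 had no changed event, and its values are uncertain to the extent that processed pseudogenes, which HNRNPC and HNRNPK also have, share its reads. Its 75-nt exon at chr12:54676584-54676658 went from 99.3% to 99.9% in EMT (ΔPSI 0.62, adjusted p = 7.34e-09). The exon of its A1-B form is not a variable segment in the tables used here. Its widest difference in each comparison was in an MXE row of a 39-residue exon and its neighbour, both nearly always included in their own SE rows, at 1.91 points in EMT, -0.56 in the EPI knockdown and -1.59 in the MES knockdown. HNRNPH3, a guanine-run binder, had its widest difference in a retained intron of 1169 nt, at 41.9% in EPI control and 49.01% after knockdown (ΔPSI 7.12, adjusted p = 1.0) and 37.3% in MES control (ΔPSI -4.58, adjusted p = 0.921), on a mean of 186 to 220 junction reads per library. In the MES knockdown its widest difference was 1.95 points, in an MXE row of exons that were likewise nearly always included, and did not pass. Its 45-nt alternative 5′ splice site had 73.8%, 70.5% and 72.2% in EPI control and 66.0%, 67.4% and 70.5% after knockdown (ΔPSI -4.21, adjusted p = 0.81). HNRNPF, whose coding sequence is uninterrupted, had events in 5′ UTR exons alone, and none passed. Its 59-nt and 135-nt exons were each included at 99.2% or higher in all group means of their SE rows, and the ratio of their junction reads in an MXE row differed by -4.69 points in EMT (adjusted p = 0.127), -2.68 in the EPI knockdown and -2.29 in the MES knockdown.

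AKAP8 eCLIP peaks lay over 4 of the 10 members in each state, HNRNPF, HNRNPH1, HNRNPH3 and HNRNPK, and the peak lists hold no peak over HNRNPM, HNRNPA1, HNRNPA2B1, HNRNPC, HNRNPD or HNRNPDL. Of 8203 genes examined, 20.8% had a peak in EPI and 12.6% in MES. Peaks with a log2 of immunoprecipitation over input of at least 2 and a −log10 adjusted p of at least 3 numbered 29 over the members in EPI and 38 in MES. The lists contain overlapping entries, and merging them left 15 and 21 loci. Of the 16 other hnRNP genes with a level, 8 had a peak in EPI and 4 in MES. The replicates of each state were merged by the authors, so no spread between replicates can be given for a peak. The lists differ in length, with 21665 peaks in EPI and 26228 in MES, and the part of this in the member counts was not tested.

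The strongest intron peaks of HNRNPF and HNRNPH3 are shown as windows of 100 nt around their midpoints, to let the runs of guanines in them be seen. Letters are GRCh37 on the strand of the gene, with runs of 3 or more guanines in capitals.
HNRNPF intron in EPI, chr10:43903906-43904005, minus strand: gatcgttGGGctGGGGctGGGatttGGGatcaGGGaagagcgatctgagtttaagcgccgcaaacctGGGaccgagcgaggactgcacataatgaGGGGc
HNRNPF intron in MES, chr10:43904057-43904156, minus strand: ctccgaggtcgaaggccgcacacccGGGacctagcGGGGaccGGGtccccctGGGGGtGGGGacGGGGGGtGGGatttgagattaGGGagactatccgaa
HNRNPH3 intron in EPI, chr10:70092411-70092510, plus strand: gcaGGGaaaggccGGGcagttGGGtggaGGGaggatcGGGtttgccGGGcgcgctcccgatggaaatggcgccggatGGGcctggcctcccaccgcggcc
HNRNPH3 intron in MES, chr10:70093005-70093104, plus strand: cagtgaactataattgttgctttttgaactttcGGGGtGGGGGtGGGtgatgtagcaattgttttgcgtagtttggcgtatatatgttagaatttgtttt
The 4 windows hold 7, 8, 7 and 3 such runs. A run of 3 or more G directly between A or T on both sides was found in 23 of 29 member peak windows in EPI (79.3%) and in 23 of 38 in MES (60.5%), searched on the transcribed strand, against 94.9% and 92.8% of all peak windows of this length. GGGG was in 75.9% and 73.7% of the member windows, against 92.9% and 87.8% of all. AGGGA, which overlaps the first motif, was in 34.5% and 26.3%, against 40.3% and 34.1%, and GTGGTGG was in 13.8% and 2.63%, against 6.55% and 5.78%. Many windows of a gene overlap, so these shares describe few independent sites.

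HNRNPF had 12 peaks in EPI and 16 in MES, all in introns between its 5′ UTR exons except 1 EPI peak in such an exon. The strongest was at chr10:43903941-43903970 in EPI, with a log2 over input of 5.25, and at chr10:43904087-43904125 in MES, with 3.97. HNRNPH1 had 8 and 17, the strongest at chr5:179045594-179045639 in EPI (5.89) and chr5:179045842-179045884 in MES (6.15), both inside exons of transcripts annotated as non-coding or for nonsense-mediated decay. HNRNPH3 had 4 intron peaks in EPI and 2 in MES, the strongest at chr10:70092445-70092476 (4.75) and chr10:70093034-70093074 (4.55). HNRNPK had 5 and 3, the strongest in the 5′ UTR at chr9:86594760-86594809 in EPI (3.78) and chr9:86594763-86594821 in MES (3.15).

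The peaks of 3 of the genes were grouped at the 5′ end. All peaks over HNRNPK and HNRNPH3, and 11 of 12 in EPI and 13 of 16 in MES over HNRNPF, had their midpoint within 2.5 kb of the annotated gene start. Overlapping entries are counted separately here, and the share of all AKAP8 peaks that close to a gene start was not computed. The grouping is therefore not shown to be particular to these genes. Over HNRNPH1, peaks lay between 15.5 and 16.2 kb from the start in EPI and between 10.5 and 16.3 kb in MES, in a gene of 20.6 kb. Of the 29 EPI peaks, 23 overlapped a MES peak by at least 1 nt, which included all 8 over HNRNPH1, all 5 over HNRNPK, 10 of 12 over HNRNPF and 0 of 4 over HNRNPH3. In the reverse direction 23 of 38 MES peaks overlapped an EPI peak. The share of all EPI and MES peaks that overlap was not computed, so these counts cannot be called high or low. By position, 19 peaks were intronic in each state, 8 in EPI and 14 in MES were in exons of non-coding or decay-prone transcripts, and 2 and 5 were in 5′ UTR exons.

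**Figure D4:**
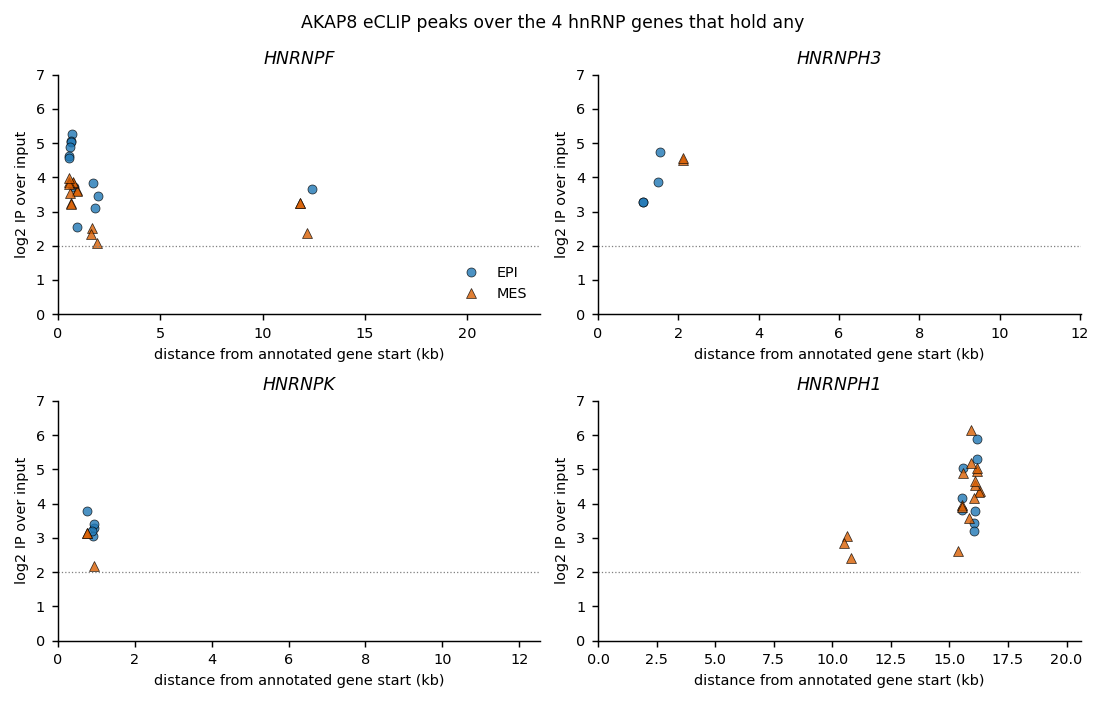
AKAP8 eCLIP peaks over HNRNPF, HNRNPH3, HNRNPK and HNRNPH1, with the distance of the peak midpoint from the annotated gene start in kb on the x axis, which spans the gene, and the log2 of immunoprecipitation over input on the y axis. Circles are EPI peaks, triangles are MES peaks and the dotted line is the minimum of 2. Peaks over HNRNPK and HNRNPH3 lie within 2.5 kb of the start, and those over HNRNPH1 lie from 10.5 kb on.

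The 3 events changed in EMT are in genes without a peak, so that no peak of these genes could lie within 1000 nt of them. Of all genes examined, 20.8% had a peak in EPI and 12.6% in MES, so most genes have none. The share of all changed events with a peak nearby was not computed, and no conclusion is drawn from the 3. The HNRNPK exon of 72 nt was 5672 nt from the nearest EPI peak and 5671 nt from the nearest MES peak. The closest pair was the 135-nt 5′ UTR exon of HNRNPF, 139 nt from an EPI peak and 415 nt from a MES peak. Its inclusion in SE rows was 99.2% or higher in all group means, and no difference of it passed the test.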

How the data were processed

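The authors aligned paired-end reads to GRCh37 with STAR, kept unique reads and counted, with rMATS, the junction reads that include or skip each annotated segment. The deposited tables list these counts per library for 5 event types and 3 comparisons, without numbering the libraries, and the EMT tables alone hold the third MES control. The authors' own p-values, differences and gene table, and their 30 columns with a PSI for each library, were left out. In the deposited eCLIP lists, made from merged replicates, each peak has a log2 of IP over input and a −log10 adjusted p, used as given and placed on Gencode v44 lifted to GRCh37.

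PSI was recomputed from reads and effective lengths. Events with a mean of at least 20 junction reads entered a quasi-binomial F test with dispersion moderated by squeezeVar of limma 3.58.1 (R 4.3.3) on a trend of reads of the rarer form, with Benjamini-Hochberg adjustment within event type and comparison. Gene levels, summed over SE events present in all comparisons, shift when splicing shifts. They were scaled by median of ratios and tested with limma on log2(value + 1) in 1 fit of 11 libraries, for genes with at least 10 scaled reads in at least 2 libraries. The event fits were run on data simulated with the dispersion that the same test had estimated, and the gene fits with a fixed dispersion. These runs cannot show whether the p-values hold for the spread of these libraries.

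Named were all members, every changed event, otherwise the widest difference per member, known isoform segments, the strongest peaks and, of the 3 other hnRNP genes furthest from 0, those that can be given. Some items covered by this rule are not reported here. Members and lists were chosen with earlier results of these data known, and the quasi-binomial model came from an earlier analysis that had counts of calls in view. Alternatives covered read minimum, ΔPSI limit, dispersion, logit PSI, scaling, pseudocount, groups fitted, peak thresholds and each library left out.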

Additional observations from a re-analysis of the deposited data

How the results depend on the processing

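The count of member events changed in EMT, 3, was 10 at a ΔPSI of at least 5 points, 1 with the dispersion trend on all reads, 0 with limma on logit PSI, and between 2 and 4 with a library left out. In the MES knockdown the count of 0 became 1 at 5 points and lay between 0 and 1 with a library left out, and in the EPI knockdown it was 0 under every alternative run. The count of member genes called in EMT, 1, was 2 with total junction reads as the scale, with the top SE event per gene or in a fit of the compared groups only, 0 when a log2 fold change over 1 was also asked, and between 1 and 2 with a library left out. Over all events, the 32 calls of the EPI knockdown ranged from 0 to 115, the 32 of the MES knockdown from 0 to 240, and the 1070 of EMT from 471 to 1492. Of 1104 alternatives for single genes, segments or peak counts, 1004 kept direction and side of the threshold, 16 lost the call and 15 gained it. In 69 the difference changed sign without a call in either setting, and in 0 it changed sign with a call. For segments the call includes the 10-point limit. A segment under that limit that lost only its adjusted p therefore counts as kept, as do genes and segments that stayed without a call in the same direction. The causes were not tested. No paired analysis was possible because the libraries in the deposited tables carry no replicate number. With 2 MES knockdown libraries, leaving 1 out assumes that the other varies like the rest. The HNRNPH3 retained intron had few reads and a wide spread, from 27.7% to 48.1% within MES control, and the part of depth in this was not tested.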

Other observations

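The first listed EPI AKAP8 knockdown library lay toward the MES values at 4 segments, and this was noticed after the values were seen. Its PSI was 16.7% at the HNRNPA2B1 B1 exon, 73.7% at the HNRNPD exon of 57 nt, 26.1% at the HNRNPC segment of 39 nt and 12.3% at the HNRNPDL exon of 105 nt. The EPI controls stood at 12.0% to 13.0%, 62.9% to 66.8%, 17.5% to 17.9% and 18.2% to 30.4% at the same segments. Other segments went both ways. The same library also lay toward MES at the HNRNPD exon of 49 residues (49.9%) and the HNRNPC exon of 26 nt (75.1%). It lay away from MES at the 45-nt HNRNPH3 site (66.0%, EPI controls 70.5% to 73.8%, MES controls 73.5% to 78.5%). At the HNRNPM segment of 39 residues (46.6%) it lay within the EPI controls. In that library HNRNPM had 14442 scaled reads, the highest of the 6 EPI libraries. It had 2153 scaled reads for the epithelial marker CDH1, against 1251 to 1794 in the EPI controls and 41.2 to 118 in the MES controls, and 22356 for the mesenchymal marker VIM, against 25479 to 35131 and 103936 to 110675. Its 44.1 scaled reads for POSTN, another mesenchymal marker, lay above the 8.85 to 15.2 of the EPI controls and below the 1057 to 1914 of the MES controls, as did those of the other EPI knockdown libraries. The third listed MES control lay toward the EPI values at the first 3 of the 4 segments named first, with 19.8%, 72.8% and 23.3%. It had the lowest HNRNPM level of the MES controls, 15039 scaled reads.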
